A study of Mus musculus with 15 samples.

Results

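The oxidative stress regulator Nrf2, its inhibitor, its classical target genes and the lipid peroxide defence that they feed were followed across liver tumors of CCl4-treated mice. The set holds 10 genes, namely Nfe2l2, Keap1, Nqo1, Gclc, Gclm, Txnrd1, Srxn1, Gpx2, Gpx4 and Slc7a11, taken as the non-control probes that carry these gene names. Each gene has 1 probe among the 55681 non-control probes of the array, so all values below rest on a single probe per gene. The rule names the genes and uses no measured level, but the set was put together with earlier results of these data known. RNA of 15 tumors was hybridised to 1-colour Agilent mouse arrays, with 5 tumors in each of 3 groups. The first group is hepatocellular carcinoma (HCC) of p53f/f mice, which carry floxed Trp53 alleles without the deletion and serve as controls. The other groups are HCC and ICC of p53LKO mice, in which Trp53 was deleted in the liver, ICC being the label for intrahepatic cholangiocarcinoma. All mice received CCl4, a hepatotoxin, at 0.5 µl per g body weight by intraperitoneal injection over 16 weeks. The labels give an interval of 3 days between injections and the methods another one. The methods give a C57/BL6J background and mice of both sexes, and a legend calls the HCC mice of this experiment male. That legend covers 4 of the 5 mice with ICC, which also gave an HCC. The sex of mouse 3977, the age at which the hybridised tumors were taken and the promoter that drives the Cre recombinase are not given in the sources used here. The paper reports that tumors formed later in p53f/f than in p53LKO mice, so age may differ with genotype. The 5 p53f/f HCC came from 4 mice, since mouse 3717 gave 2 tumors, and 4 mice gave both an HCC and an ICC of the p53LKO groups.

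Nrf2, encoded by Nfe2l2, is a transcription factor that Keap1 holds in the cytoplasm and hands to the ubiquitin system for degradation. When electrophiles or oxidants modify Keap1, Nrf2 accumulates, pairs with a small Maf protein and binds the antioxidant response element of genes for detoxification, glutathione synthesis and thioredoxin function. Ferroptosis is an iron-dependent cell death driven by lipid peroxides, held in check by cystine import, glutathione and the selenoenzyme Gpx4. The liver is rich in both systems because hepatocytes handle xenobiotics and iron. In this text, a level is the log2 processed signal of a probe minus the 75th percentile of its array, so that 0 marks the 75th percentile, and a difference is one group mean minus another on that log2 scale. Levels of different probes are not compared with each other. A gene was counted as changed where its fold change exceeded 2 and its adjusted p was below 0.05 in the limma model over all probes tested.

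The letters of the antioxidant response element were looked for in the promoters of the 10 genes, because several of them moved together in ICC. RefSeq promoter windows of mouse build GRCm38.p6, 300 bases long with 250 before and 50 after the start, were at hand for 9 of the 10 genes, all but Gclc. The core TGACNNNGC, read on both strands, stands in windows of 4 of these genes, and TGAGNNNGC adds Slc7a11. Both forms overlap the AP-1 motif TGANTCA where the middle letters fit. The matches are shown with their 9 core letters in capitals and 10 bases on each side, each on the strand where the core reads forward. They are matches of letters only, and binding of Nrf2 was not tested. Distances are those of the core base furthest upstream in the direction of the gene. For a match on the strand opposite to the gene, this is the last core letter shown.
Gclm, chr3:122245413-122245441, minus strand, core begins 134 bases before the start: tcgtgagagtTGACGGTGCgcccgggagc
Txnrd1, chr10:82859104-82859132, minus strand, 92 bases before: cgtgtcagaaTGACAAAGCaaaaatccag
Srxn1, chr2:152105356-152105384, minus strand, 158 bases before: ccagagaggaTGAGTCGGCtctcagtaga
Srxn1, chr2:152105469-152105497, plus strand, 45 bases before: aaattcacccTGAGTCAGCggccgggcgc
Srxn1, chr2:152105542-152105570, minus strand, at base 29 after the start: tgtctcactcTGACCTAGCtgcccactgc
Slc7a11, chr3:50443692-50443720, plus strand, 97 bases before: aactccagctTGAGAAAGCgccaacatta
Nfe2l2, chr2:75704885-75704913, minus strand, 240 bases before: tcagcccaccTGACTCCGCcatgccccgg
Of all 27025 genes with a window in the table, 14% have one that holds TGACNNNGC and 30.8% one that holds either form, so a match is frequent. By window, the shares are 12.4% and 27.8% of 32851. Srxn1 stands out among the 9 genes only in having 3 matches in 1 window, and the one 45 bases before the start, TGAGTCAGC, contains the AP-1 letters. The windows of Nqo1, Keap1, Gpx2 and Gpx4 hold neither form, which says only that these letters are not within these bases. Among the other Nrf2 targets listed for this work, 8 of 29 genes with a window hold TGACNNNGC and 12 of 29 hold either form.

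Arrays of the 3 groups differed in how much signal they held. The Feature Extraction software called 55.1% to 70.1% of the probes well above background on p53f/f HCC arrays, 37.0% to 62.1% on p53LKO HCC arrays and 42.5% to 47.0% on ICC arrays, with 0 saturated probes. Between p53LKO and p53f/f HCC, 1312 probes were higher and 5774 lower of 36086 tested, a split that spike-in scaling turned to 9811 and 2313 and a filter on signal on all arrays to 1002 and 846. Between ICC and HCC of p53LKO mice, 4225 were higher and 4390 lower of 32666. The arrays were spread over 2 slides, each of 2 rows. The upper row held all 5 p53f/f HCC and the lower row all 5 ICC, so row and group cannot be told apart between these groups. Trp53, the deleted gene, ranged from -1.27 to -0.68 in p53f/f HCC, while p53LKO HCC lay lower at -3.86 to -2.75, without overlap, and ICC at -4.19 to -2.31. The array file places its only probe on chromosome 17 of mm9, while RefSeq has Trp53 on chromosome 11, so this check of the labels rests on a probe whose position is uncertain. The mean level of 10 hepatocyte markers was 7.08 to 8.02 in p53f/f HCC, 6.72 to 7.31 in p53LKO HCC and 4.59 to 6.79 in ICC. Alb, the main plasma protein of hepatocytes, averaged 10.36 ± 0.31, 9.76 ± 0.28 and 7.85 ± 1.18 in that order (SD, n = 5 each), and all 10 hepatocyte markers were well above background on every ICC array. Hnf4a, the hepatocyte transcription factor, was at 6.77 to 7.33, 7.02 to 7.63 and 4.13 to 5.70. The mean of 10 biliary markers was -2.30 to -0.33, -2.22 to -1.01 and -0.04 to 0.36. Krt19, a biliary keratin, stood at 1.59 to 2.81 in ICC, at -4.64 to -1.24 in p53LKO HCC and at -4.47 to 0.88 in p53f/f HCC. Epcam was well above background on all 5 ICC arrays, on 0 p53LKO HCC arrays and on 1 p53f/f HCC array. Krt7 was well above background on 4 of 5 ICC, 2 of 5 p53f/f HCC and 1 of 5 p53LKO HCC arrays. Its level reached -0.93 in p53f/f HCC, inside the ICC range of -3.68 to -0.73. Of 9 biliary markers tested, 4 were higher in ICC than in p53LKO HCC and 1, the claudin Cldn7, was lower (difference -2.52, adjusted p = 0.000420), named after its value was seen. The tumors were bulk tissue, so fewer cells of a type and less RNA per cell cannot be told apart in any value below.

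Nfe2l2 and Keap1 encode the regulator and its repressor. Nfe2l2, the gene of Nrf2, stood at 3.54, 3.67, 3.67, 3.79 and 3.80 in p53f/f HCC, at 3.51, 3.76, 3.83, 4.21 and 4.46 in p53LKO HCC, and at 3.38, 3.43, 3.52, 3.73 and 3.79 in ICC. The 3 groups overlapped, and the highest levels belonged to the p53LKO HCC of mice 5283 and 3733. Nfe2l2 did not pass the test in any comparison, with differences of 0.26 ± 0.19 (SE) for p53LKO against p53f/f HCC (adjusted p = 0.322), -0.39 ± 0.20 for ICC against p53LKO HCC (adjusted p = 0.142) and -0.12 ± 0.15 for ICC against p53f/f HCC (adjusted p = 0.550). Keap1, the repressor of Nrf2, stood at 2.12, 2.27, 2.46, 2.48 and 2.53 in p53f/f HCC, at 2.39, 2.50, 2.85, 2.94 and 3.18 in p53LKO HCC, and at 1.58, 1.58, 1.66, 1.74 and 2.39 in ICC. Of the ICC, 4 of 5 lay below every HCC, and the ICC of mouse 3976 lay at the level of the lowest p53LKO HCC. Between ICC and p53LKO HCC, Keap1 differed by -0.98 ± 0.22 (SE, 95% interval -1.46 to -0.50, adjusted p = 0.00468), a fold of 1.97 that fell just short of the limit. Without the ICC of mouse 3976 the difference was -1.13, past both thresholds. It also passed without the HCC of mouse 5283 (-1.05) or of mouse 3731 (-1.08), and with normexp background correction (-1.01, adjusted p = 0.00226). With the row as a block it was at -1.05 (adjusted p = 0.0290) and within the lower row at -1.05 (adjusted p = 0.0495), past both thresholds as well. It stayed under the fold limit with quantile normalization (-0.72) and with scaling to the 75th percentile (-0.61) or median (-0.78) of detected probes, and over all 30 alternatives it passed in 7.

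**Figure D1:**
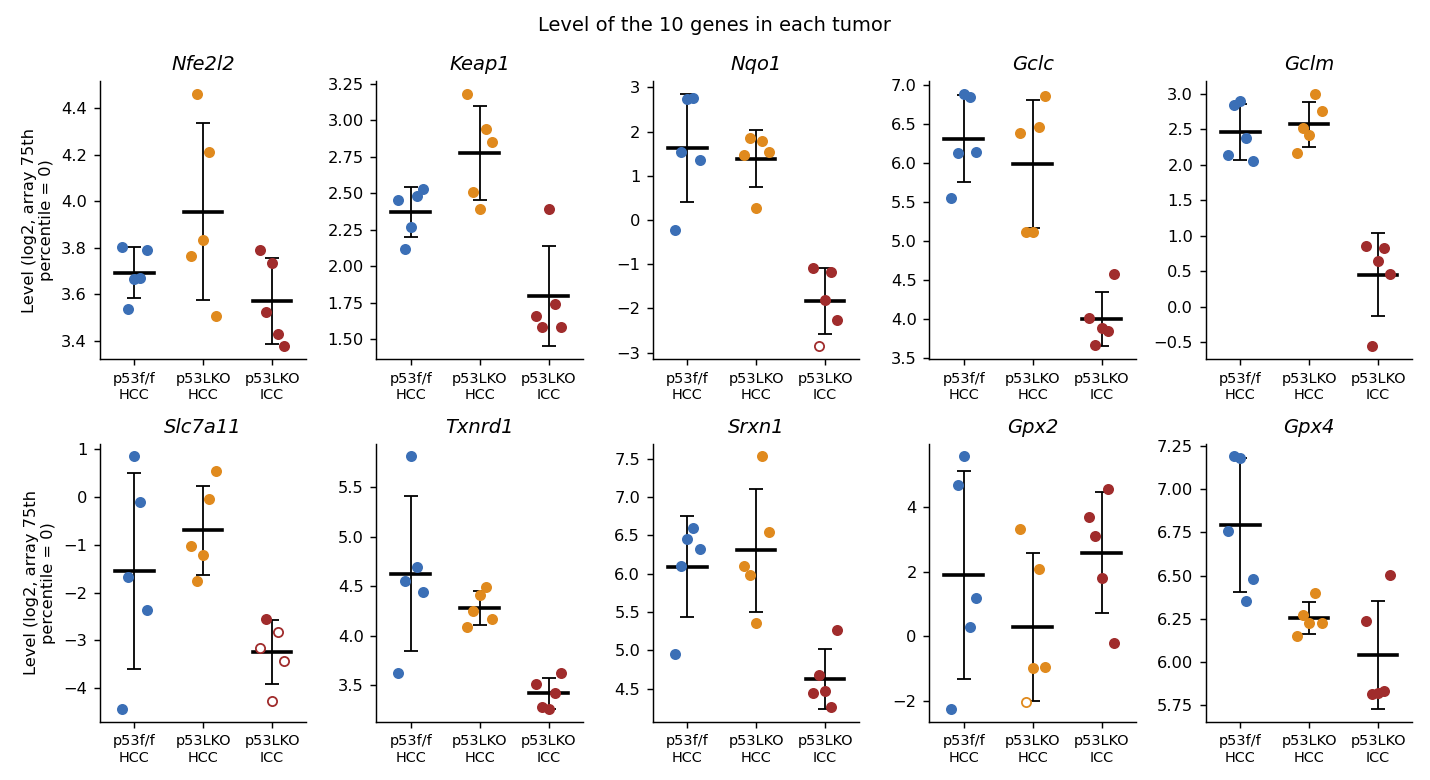
Level of each of the 10 genes (log2, 0 at the array's 75th percentile) in 5 p53f/f HCC, 5 p53LKO HCC and 5 p53LKO ICC. Each point is a tumor, open points were not well above background, bars give the mean and SD, and each panel has its own scale. For Nqo1, Gclc and Gclm all 5 ICC lie below all 10 HCC, whereas Nfe2l2 and Gpx2 overlap across the groups.

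Of the 10 genes, 5 were past both thresholds and lower in ICC than in HCC of p53LKO mice and 0 were higher, where 15.2% of the 16960 genes tested were lower and 13.2% were higher. At an unadjusted p under 0.05, limma counted 0 of the 10 as higher as well. The 5 were Nqo1, Gclc, Gclm, Srxn1 and Slc7a11. The median difference over the 10 genes was -1.33, against -0.17 over all genes tested, and 6 of the 10 did not overlap between the groups, against 30.8% of all genes. Nqo1, a quinone reductase and the textbook Nrf2 target, stood at -0.23, 1.36, 1.54, 2.73 and 2.76 in p53f/f HCC, at 0.28, 1.47, 1.55, 1.79 and 1.86 in p53LKO HCC, and at -2.86, -2.25, -1.82, -1.17 and -1.09 in ICC. Every ICC was below every HCC, and the lowest ICC, that of mouse 3733, was the only tumor in which the Nqo1 probe was not well above background. The difference between ICC and p53LKO HCC was -3.23 ± 0.39 (SE), a fold of 9.36 (95% interval -4.10 to -2.36, adjusted p = 0.000197). With background correction by normexp it was -2.48 (adjusted p = 6.47e-05), so its size depends on how the background was treated. An exact permutation test over the arrays (2-sided, n = 5 and 5) gave p = 0.00794 for Nqo1, the smallest that 252 regroupings allow, as for every gene here whose groups did not overlap. The regroupings take all tumors as independent, although 4 mice gave both an HCC and an ICC.

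Glutathione synthesis starts with glutamate-cysteine ligase, made of the catalytic subunit Gclc and the modifier subunit Gclm. Gclc stood at 5.56, 6.14, 6.14, 6.85 and 6.89 in p53f/f HCC, at 5.11, 5.12, 6.39, 6.46 and 6.87 in p53LKO HCC, and at 3.67, 3.84, 3.89, 4.02 and 4.58 in ICC. The p53LKO HCC of mice 3731 and 5283 stood apart at 5.11 and 5.12, below the other 3 of their group, and still every ICC was lower. The difference of ICC from p53LKO HCC was -1.99 ± 0.36 (SE), a fold of 3.98 (95% interval -2.79 to -1.20, adjusted p = 0.00158). Gclm stood at 2.06, 2.14, 2.38, 2.84 and 2.90 in p53f/f HCC, at 2.17, 2.42, 2.52, 2.75 and 3.00 in p53LKO HCC, and at -0.56, 0.46, 0.65, 0.83 and 0.86 in ICC. The HCC groups covered nearly the same range, and the gap to the highest ICC was over 1 log2 unit. Gclm was lower in ICC, with a difference of -2.12 ± 0.28 (SE), a fold of 4.35 (95% interval -2.74 to -1.50, adjusted p = 0.000304).

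Slc7a11, the transporter subunit of system xc- that brings in the cystine for glutathione, was near background in most ICC. It stood at -4.44, -2.36, -1.67, -0.10 and 0.85 in p53f/f HCC, at -1.76, -1.21, -1.02, -0.04 and 0.55 in p53LKO HCC, and at -4.26, -3.43, -3.16, -2.82 and -2.56 in ICC. The probe was well above background on all 10 HCC arrays and on 1 of 5 ICC arrays, so the ICC levels lie near the limit of detection. Against p53LKO HCC the ICC differed by -2.55 ± 0.45 (SE, adjusted p = 0.00145), with no overlap. With background correction by normexp the difference was -1.49 (adjusted p = 0.00364), still past the thresholds, so the size of this fall rests on how the background was treated. The p53f/f HCC of mouse 3681 lay below the lowest ICC, at -4.44, yet its probe was called well above background. The cutoff of that call thus differed by array, and the level of this tumor is low as well.

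Thioredoxin reductase 1, encoded by Txnrd1, is a selenoenzyme that keeps thioredoxin reduced, and sulfiredoxin, encoded by Srxn1, repairs hyperoxidised peroxiredoxins. Srxn1 stood at 4.95, 6.10, 6.33, 6.45 and 6.60 in p53f/f HCC, at 5.36, 5.98, 6.10, 6.55 and 7.53 in p53LKO HCC, and at 4.26, 4.44, 4.47, 4.67 and 5.27 in ICC. The highest ICC, that of mouse 5283 at 5.27, came close to the lowest p53LKO HCC, that of mouse 3731 at 5.36, so the groups were separate by little. Srxn1 was lower in ICC, with a difference of -1.68 ± 0.36 (SE), a fold of 3.21 (95% interval -2.48 to -0.88, adjusted p = 0.00409). With the row as a block its difference was -1.42 (adjusted p = 0.0555), no longer past the threshold. Txnrd1 stood at 3.63, 4.44, 4.55, 4.69 and 5.81 in p53f/f HCC, at 4.08, 4.17, 4.25, 4.41 and 4.50 in p53LKO HCC, and at 3.26, 3.28, 3.42, 3.51 and 3.63 in ICC. The p53LKO groups were tight and separate, while the p53f/f HCC spread over more than 2 log2 units. For Txnrd1, ICC differed from p53LKO HCC by -0.86 ± 0.15 (SE, 95% interval -1.19 to -0.53, adjusted p = 0.00125), a fold of 1.82 that is under the limit of 2.

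The glutathione peroxidases did not pass the thresholds between ICC and p53LKO HCC. Gpx4, the selenoenzyme that reduces phospholipid peroxides, stood at 6.35, 6.48, 6.75, 7.18 and 7.19 in p53f/f HCC, at 6.15, 6.22, 6.23, 6.27 and 6.40 in p53LKO HCC, and at 5.82, 5.82, 5.83, 6.24 and 6.50 in ICC. It was the least variable gene within p53LKO HCC (SD 0.09, n = 5), and the ICC lay on both sides of that group. ICC and p53LKO HCC differed by -0.21 ± 0.17 (SE, 95% interval -0.60 to 0.17, adjusted p = 0.341), and the sign turned to 0.31 with quantile normalization and to 0.15 with scaling to the 75th percentile of detected probes. Gpx2, the epithelial glutathione peroxidase best known from the gut, stood at -2.25, 0.30, 1.19, 4.68 and 5.58 in p53f/f HCC, at -2.03, -0.98, -0.94, 2.09 and 3.33 in p53LKO HCC, and at -0.21, 1.80, 3.12, 3.71 and 4.57 in ICC. It varied more between tumors of 1 group than any other of the 10 genes, from -2.25 to 5.58 in p53f/f HCC. The difference between ICC and p53LKO HCC was 2.30 ± 1.13 (SE, 95% interval -0.20 to 4.80, adjusted p = 0.120). Gpx2 passed both thresholds without the HCC of mouse 3976 (3.06, adjusted p = 0.0395) or without the ICC of mouse 5283 (3.00, adjusted p = 0.0410).

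**Figure D2:**
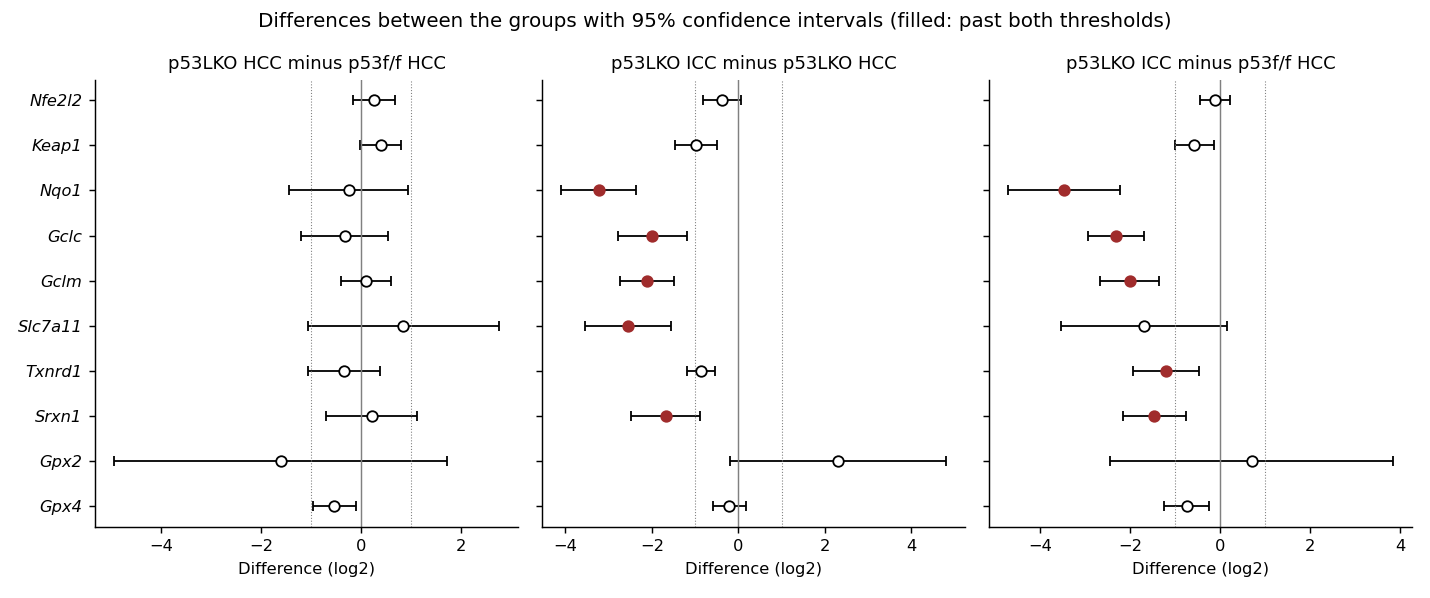
Difference of group means (log2, x axis) of the 10 genes in the 3 comparisons, with 95% confidence intervals of the limma model. Filled points are past both thresholds and dotted lines mark a fold of 2. The left panel holds 0 filled points, the middle and right panels 5 each, all below 0.

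The 4 p53LKO mice that gave both tumor types, 3731, 3733, 3976 and 5283, allow the tumor types to be set side by side within a liver. In all 4 mice the ICC was lower than the HCC for Nqo1, Gclc, Gclm, Slc7a11, Srxn1, Txnrd1, Keap1 and Nfe2l2. The difference of Nqo1 was -1.37 in mouse 3731, -4.65 in mouse 3733, -3.28 in mouse 3976 and -4.11 in mouse 5283. The size thus differed by mouse, with mouse 3731, whose HCC held the least Nqo1, showing the smallest gap. Gclm differed by -3.56 to -1.52, Gclc by -2.80 to -0.55 and Srxn1 by -2.86 to -0.72. For Slc7a11 mouse 3733 was the one whose ICC had the probe well above background, with a difference of -2.52, and the sizes in the other 3 mice rest on signal near background. Mouse 3733 had the largest gap for Gclc, Gclm, Srxn1, Txnrd1 and Keap1, and also for Nqo1, where its ICC was not well above background and the size of the gap is uncertain. Its ICC also had the lowest hepatocyte marker mean of the 5 ICC, at 4.59. The gaps of Nfe2l2 were as small as -0.03 in mouse 3976 and -0.04 in mouse 3731. Gpx4 was higher in the ICC of 2 mice and lower in that of the other 2, and Gpx2 was higher in the ICC of 3 of 4.

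**Figure D3:**
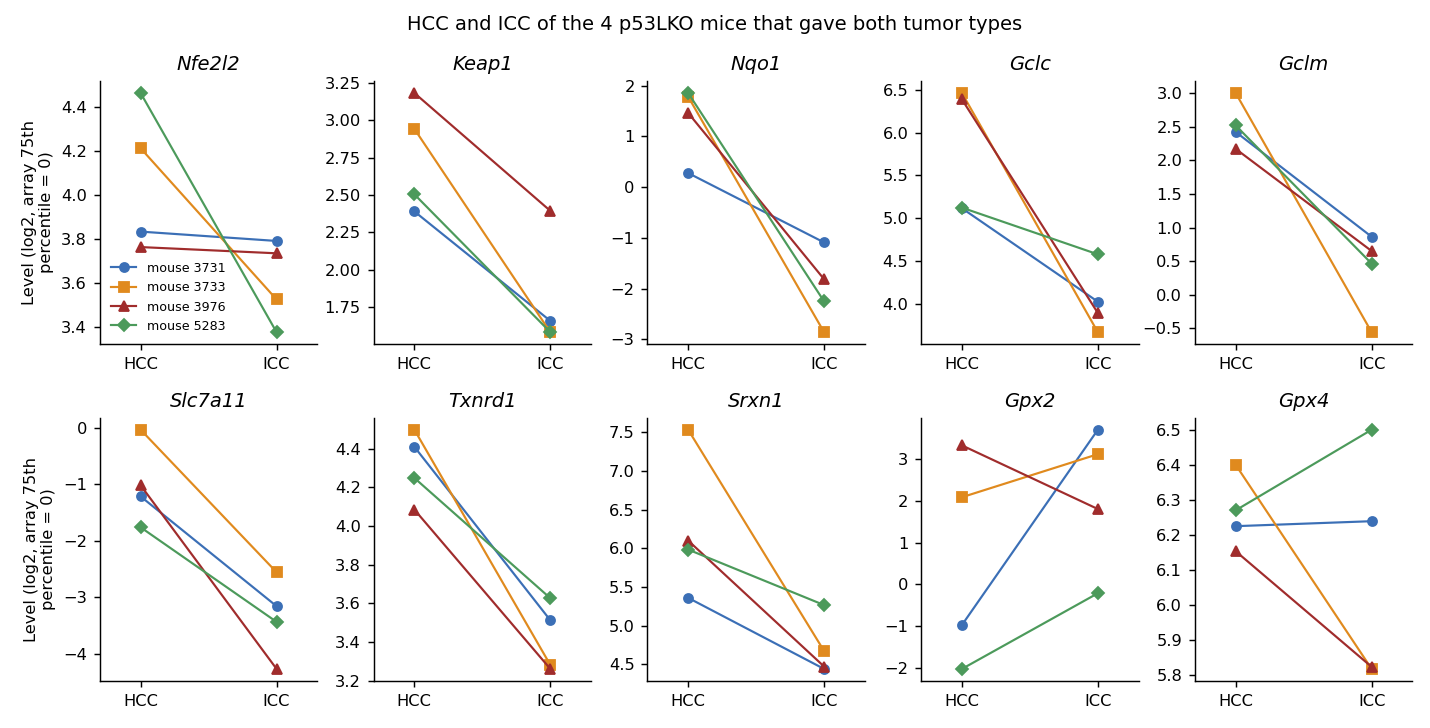
Level of the 10 genes (log2, 0 at the array's 75th percentile) in the HCC and the ICC of the 4 p53LKO mice that gave both, with 1 line per mouse and a scale per panel. All 4 lines fall from HCC to ICC for 8 genes, and those of Gpx2 and Gpx4 run both ways.

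Batches and other cell types moved with the comparison of ICC with HCC. Within slide 2, with 3 HCC and 4 ICC, the differences were -3.23 for Nqo1, -2.16 for Gclc, -2.38 for Gclm, -1.81 for Srxn1 and -3.04 for Slc7a11, and all 5 genes stayed past the thresholds. Slide 1 held 2 HCC and 1 ICC, which leaves no spread among ICC, and the differences there were -2.75, -1.73, -1.48, -1.60 and -1.77 in the same order. Within the lower row, with 2 HCC and 5 ICC, the differences were -3.50, -1.75, -1.89, -1.42 and -1.86 in that order again, all past the thresholds. Of the 10 hepatocyte markers, 5 were past both thresholds and lower in ICC, with a median difference of -1.37 over the list. Of the stellate cell and fibroblast markers, 5 of 8 were higher in ICC, with a median of 1.78 and a mean level of 3.00 to 3.95 against 1.40 to 3.16 in p53LKO HCC. The part of hepatocyte content, stroma and row in the differences of the 10 genes was not tested.

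Between HCC of p53LKO and p53f/f mice, 0 of the 10 genes passed both thresholds, where 5.19% of the 17847 genes tested were higher and 10.8% lower. At an unadjusted p under 0.05, limma counted 1 of the 10, Gpx4, and the methods' t-test and the Mann-Whitney test counted 0 past both thresholds. None of the 10 was without overlap, against 19.5% of all genes, and their median difference was -0.07, against 0.06. For Nqo1 the difference was -0.25 ± 0.54 (SE, 95% interval -1.44 to 0.95, adjusted p = 0.756), an interval that still holds a 2-fold fall. Gclm had a narrower interval, -0.39 to 0.61 around 0.11, which holds no 2-fold change. For Gclc the difference was -0.33 (-1.20 to 0.55), for Txnrd1 -0.34 (-1.07 to 0.38) and for Srxn1 0.22 (-0.70 to 1.13). Slc7a11 differed by 0.85 (-1.07 to 2.77) and Gpx2 by -1.61 (-4.94 to 1.73), with intervals too wide to say more than that both overlapped. Gpx4 came closest, with 4 of 5 p53LKO HCC below every p53f/f HCC. Its difference was -0.54 ± 0.20 (SE, 95% interval -0.97 to -0.11, adjusted p = 0.0553, exact permutation test p = 0.0159 with the tumors of mouse 3717 taken as independent). Its adjusted p was 0.00532 with scaling to the 75th percentile of detected probes (-0.79), 0.0143 with their median (-0.69), 0.0296 with quantile normalization (-0.67) and 0.0421 with the tumors of mouse 3717 averaged (-0.63), all under the fold limit. It was 0.126 with the slide as a block, 0.139 with the row as a block and 0.0937 by the methods' t-test, and leaving out 1 tumor gave 0.0352 to 0.112. Within slide 2, which held only 1 p53f/f HCC, the difference of Gpx4 was -0.20. Keap1 was next, at 0.40 ± 0.19 (SE, adjusted p = 0.121).

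Among p53f/f HCC, 1 tumor lay low in several of the genes. The tumor of mouse 3681 had the lowest level of its group for Nqo1, Gclc, Txnrd1, Srxn1, Gpx2 and Slc7a11, but not for Nfe2l2, where it was the highest. Its hepatocyte marker mean of 8.02 was the highest of all 15 tumors and its fibroblast marker mean of 0.02 the lowest. The HCC of mouse 3716 lay at the other end, with the highest Txnrd1 (5.81), Slc7a11 (0.85), Gpx2 (5.58), Gclc (6.89) and Gclm (2.90) of the p53f/f group. The 2 HCC of mouse 3717 differed by over 1 log2 unit for Nqo1 (2.76 and 1.36) and by over 2 for Slc7a11 (-0.10 and -2.36). These 2 tumors were hybridised on different slides. Scaling to the 7 spike-in probes lifted the median of all genes in this comparison from 0.06 to 0.80, and the 10 genes with it. Keap1 then passed the thresholds at 1.14, Nfe2l2 stood at 1.00 (adjusted p = 0.00774) just under the fold limit, Gclm at 0.85 (adjusted p = 0.0117) and Gpx4 at 0.20 in place of -0.54.

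Against p53f/f HCC, a comparison in which genotype, tumor type and row differ together, ICC were lower for 5 of the 10 genes and higher for 0, where 11.9% of the 17777 genes tested were lower and 10.8% higher. The unadjusted count of limma for higher genes was 0 as well. These 5 were Nqo1, Gclc, Gclm, Srxn1 and Txnrd1. The median difference was -1.34, against -0.18 over all genes, and 3 of the 10 did not overlap, against 27.3%. Both ICC comparisons use the same 5 ICC arrays, so their results are not independent. Nqo1 differed by -3.47 ± 0.56 (SE), a fold of 11.1 (adjusted p = 0.00139). Over 26 alternatives its difference ran from -3.94 to -2.72. Gclc differed by -2.32 ± 0.28, a fold of 4.99 (adjusted p = 0.000278), and Gclm by -2.01 ± 0.30, a fold of 4.04 (adjusted p = 0.000833). In these 3 genes every ICC lay below every p53f/f HCC. Srxn1 differed by -1.47 ± 0.32 (adjusted p = 0.00611), with 4 of 5 ICC below all p53f/f HCC, and Txnrd1 by -1.21 ± 0.33 (adjusted p = 0.0175), with 4 of 5. Without the p53f/f HCC of mouse 3716 the difference of Txnrd1 was -0.91, under the fold limit. Slc7a11 differed by -1.70 ± 0.84 (adjusted p = 0.137), and it passed without the tumor of mouse 3681 (-2.43, adjusted p = 0.0192) and with normexp (-1.23, adjusted p = 0.0468). Gpx4 was -0.75 ± 0.23 (adjusted p = 0.0274) and Keap1 -0.58 ± 0.19 (adjusted p = 0.0399), both under the fold limit. Txnrd1 no longer passed with the slide as a block (-1.10, adjusted p = 0.118) or by the methods' t-test (adjusted p = 0.0744) and the Mann-Whitney test (adjusted p = 0.0507), nor did Srxn1 by the last (adjusted p = 0.0507). With spike-in scaling neither passed, Srxn1 being at -0.72 (adjusted p = 0.217) and Txnrd1 at -0.46 (adjusted p = 0.380). Within slide 1 (4 p53f/f HCC and 1 ICC) and slide 2 (1 and 4) 0 of the 10 passed the adjusted threshold, with Nqo1 at -2.79 and -3.38 and Gclc at -2.34 and -2.15. Of the cell type markers, 7 of 10 for hepatocytes were lower in ICC than in p53f/f HCC (median -1.67), while 5 of 8 for stellate cells and fibroblasts (median 2.35) and 5 of 8 for macrophages (median 1.03) were higher. The mean level of the fibroblast markers was 0.02 to 1.67 in p53f/f HCC and that of the macrophage markers 1.62 to 2.67, against 3.00 to 3.95 and 2.79 to 3.77 in ICC. Their part in these differences was not tested.

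The levels of the 3 groups had a clear order for few of the genes. For Nqo1, Gclc and Gclm both HCC groups stood above ICC and did not differ beyond their spread. For Keap1 the means ran from 2.77 in p53LKO HCC over 2.37 in p53f/f HCC to 1.79 in ICC, and the HCC groups overlapped. For Gpx4 the means ran from 6.79 in p53f/f HCC over 6.25 in p53LKO HCC to 6.04 in ICC. The ends of that order differed with an adjusted p of 0.0274, which became 0.216 with quantile normalization and 0.998 with spike-in scaling. Nfe2l2 and Gpx2 have no order beyond their spread.

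Other genes of the same pathways were taken from 8 lists with 140 different genes, 6 of them in more than 1 list, and the values beside these genes are differences on the log2 scale with their SE unless called levels. Of 31 other Nrf2 targets tested, 23 were lower in ICC than in p53LKO HCC and 1 was higher, with a median difference of -2.04, where 15.2% of all genes tested were lower and 13.2% higher. The carbonyl reductases Cbr3 (-4.48 ± 0.34, adjusted p = 1.44e-05) and Cbr1 (-3.83 ± 0.26, adjusted p = 7.73e-06), the efflux pump Abcc4 (-4.43 ± 0.49, adjusted p = 0.000114) and the glutathione S-transferase Gsta2 (-4.08 ± 0.58, adjusted p = 0.000423) had the largest falls. Cbr3, for instance, had a mean level of 6.78 in p53LKO HCC and 2.30 in ICC. The falling genes also included 7 further glutathione S-transferases, among them Gstp1 (-2.85) and Gstm1 (-2.27), both named after their values were seen. Members of this family are similar in sequence, and cross-hybridisation was not tested. The pentose phosphate enzymes were less uniform, Tkt (-1.19) and Pgd (-1.16) being lower while G6pdx was at 0.60 (adjusted p = 0.0904), 3 genes chosen with their values in view. The only one that rose was Akr1b8, an aldo-keto reductase, by 1.61 ± 0.36 (adjusted p = 0.00485), named here after its value was seen. Hmox1, heme oxygenase 1, did not pass (-0.42, adjusted p = 0.294).

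Of 11 regulators of Nrf2, 1 was past the thresholds in the same comparison, a share of 9.09% that is below the 15.2% of all genes that were lower. This was Sqstm1, the autophagy adaptor p62 that binds Keap1 and is itself an Nrf2 target, at -1.44 ± 0.25 (adjusted p = 0.00119). The small Maf gene Maff was at -0.93 (adjusted p = 0.00394) and Bach1, a competing repressor, at 0.02. Of 17 genes of glutathione and cysteine supply, 8 were lower (47.1%, against 15.2% of all genes) and 0 higher, with a median of -0.91. Glutathione reductase Gsr, also counted among the Nrf2 targets, was lower, with a difference of -2.05 ± 0.25 (adjusted p = 0.000180), as was glutathione synthetase Gss with -2.00 ± 0.21 (adjusted p = 7.97e-05), the oxoprolinase Oplah with -1.74 and the glyoxalase Glo1 with -1.29. Of 16 thioredoxins, peroxiredoxins and other antioxidant enzymes, 7 were lower (43.8%, against 15.2%), among them Prdx6 (-1.91), which can reduce phospholipid peroxides, Prdx5 (-1.55), Prdx4 (-1.48) and the superoxide dismutase Sod1 (-1.46).

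Selenium supply is needed for Gpx4 and Txnrd1. Of 20 other glutathione peroxidases and selenoproteins tested, 4 were lower and 1 higher in ICC than in p53LKO HCC, with a median of -0.07, and these shares are near or below the 15.2% and 13.2% of all genes. The lower ones were the deiodinase Dio1 (-1.94 ± 0.31), Gpx7 (-1.44 ± 0.20), Selenoi (-1.20 ± 0.22) and the mitochondrial reductase Txnrd2 (-1.11 ± 0.23). The higher one was Gpx8 (1.54 ± 0.32, adjusted p = 0.00329), an enzyme of the endoplasmic reticulum, whose groups overlapped and which is named for being the only one. Of 7 genes of selenoprotein synthesis 3 were lower, among them the selenocysteine lyase Scly (-1.63 ± 0.18) and the elongation factor Eefsec (-1.32 ± 0.24). The third, Sepsecs, named after its value was seen, was at -1.24 with overlap.

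Ferroptosis defences beyond the 10 genes fell in part. Of 17 tested, 8 were lower (47.1%, against 15.2% of all genes) and 1 higher in ICC than in p53LKO HCC, with a median of -0.94. The lower ones included the phospholipase Pla2g6 (-2.34 ± 0.21, adjusted p = 4.36e-05), the iron exporter Slc40a1 (-2.26 ± 0.35, adjusted p = 0.000735) and the acyl-CoA synthetase Acsl3 (-1.78 ± 0.36, adjusted p = 0.00266). The higher one was Mboat1, a phospholipid acyltransferase, which rose by 5.41 ± 0.43 (adjusted p = 2.11e-05), from a mean level of -3.61 to one of 1.80. Of 18 drivers and associated transcripts, 4 were higher and 4 lower, with a median of -0.08, counts that lie not far from the 13.2% and 15.2% of all genes. The amino acid transporters Slc38a1 (4.42 ± 0.36, adjusted p = 2.25e-05) and Slc1a5 (3.00 ± 0.31, adjusted p = 9.16e-05), which carry glutamine, were higher. Ptgs2, the inducible cyclooxygenase often used as a ferroptosis marker transcript, was well above background on 5 of 5 ICC arrays and 0 of 5 HCC arrays of either genotype. Its level in ICC was at least 8.31-fold higher than in p53LKO HCC (adjusted p = 6.27e-05) and at least 10.1-fold higher than in p53f/f HCC (adjusted p = 1.96e-05), as bounds against the lowest signal well above background. The cytochrome P450 reductase Por was lower, with a difference of -1.82 ± 0.35 (adjusted p = 0.00223).

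**Figure D4:**
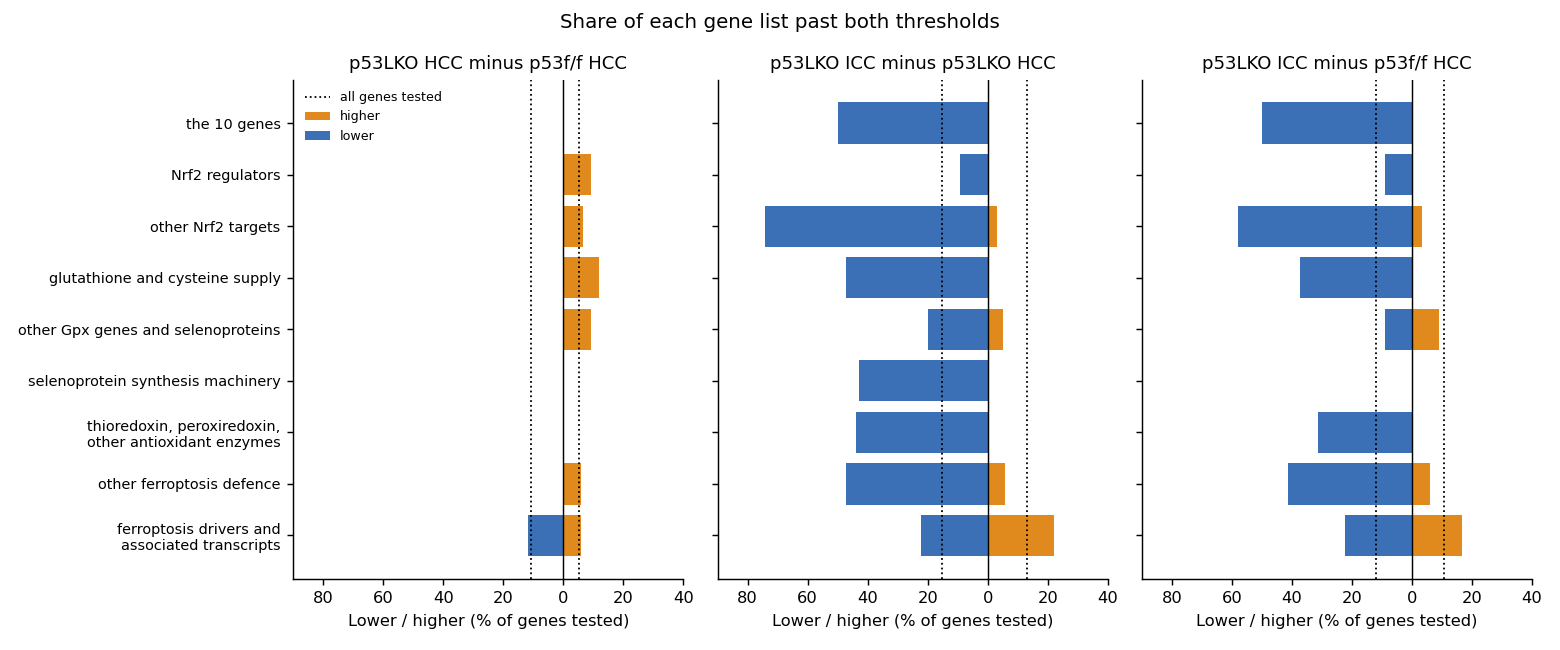
Share of the tested genes of each list that were past both thresholds, lower (left of 0) or higher (right of 0), in % of the genes tested, for the 3 comparisons. Dotted lines mark the shares over all genes tested. In the middle panel the other Nrf2 targets reach 74.2% lower, and in the left panel only the ferroptosis drivers have a bar to the left.

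The counts of these lists moved with the scaling. Over 5 ways of scaling the arrays, the main one included, 18 to 23 of the other Nrf2 targets, 4 to 8 genes of glutathione supply, 4 to 7 antioxidant enzymes and 6 to 8 ferroptosis defences were lower in ICC than in p53LKO HCC. Between the HCC groups, where 5.19% of all genes were higher and 10.8% lower, glutathione supply had 2 of 17 genes higher, the other selenoproteins 2 of 22, the regulators 1 of 11, ferroptosis defences 1 of 17 and ferroptosis drivers 1 of 17 with 2 lower. Thioredoxins and peroxiredoxins with other antioxidant enzymes, and selenoprotein synthesis, had 0 past both thresholds by limma, with 4 and 1 at an adjusted p under 0.05. Maff, a small Maf partner of Nrf2, was higher in p53LKO HCC by 1.31 ± 0.23 (adjusted p = 0.00176), Gpx7 by 2.11 ± 0.45 (adjusted p = 0.00480), Dio1 by 2.37 ± 0.59 (adjusted p = 0.0113) and the transferrin receptor Tfrc by 1.49 ± 0.27 (adjusted p = 0.00217), all 4 without overlap. Of the other Nrf2 targets, 2 of 31 were higher, Tkt (1.29, adjusted p = 0.0362) and Me1 (1.34, adjusted p = 0.0390), both named after their values were seen. That is 6.45%, close to the 5.19% of all genes, and the list's median difference was 0.40, against 0.06. Under quantile normalization 0 of the 31 were higher and under spike-in scaling 16 were, so this small count depends on the scaling.

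Against p53f/f HCC, 18 of 31 other Nrf2 targets were lower in ICC and 1, Akr1b8, was higher (1.30), with a median of -1.66, where 11.9% of all genes were lower and 10.8% higher. The largest falls without overlap were those of Gsta2 (-3.88 ± 0.62), Gstm4 (-3.18 ± 0.53), Cbr1 (-3.08 ± 0.33) and Gsta4 (-3.06 ± 0.44). In this comparison 6 of 16 genes of glutathione supply, 5 of 16 antioxidant enzymes and 7 of 17 ferroptosis defences were lower, against the same 11.9% of all genes, among them Gss (-1.41), Prdx4 (-1.75) and the desaturase Scd1 (-2.62). Of the 7 genes of selenoprotein synthesis, limma counted 0 past both thresholds here, with 5 at an adjusted p under 0.05 and a median difference of -0.69. Mboat1 (4.26 ± 0.65) and Slc38a1 (4.69 ± 0.31) were again higher. Of 22 other glutathione peroxidases and selenoproteins, 2 were lower and 2 higher, 9.09% each and below the shares of all genes. Selenop, the selenium transport protein made by hepatocytes (-1.38 ± 0.20, adjusted p = 0.000676), and Txnrd2 (-1.09 ± 0.21) were lower. Gpx8 (2.12 ± 0.24) and Selenow (1.18 ± 0.29, adjusted p = 0.0110) were higher. Of 18 ferroptosis drivers and associated transcripts, 4 were lower (22.2%) and 3 higher (16.7%). Among the lower ones was the glutaminase Gls2, a p53 target, with a difference of -2.51 ± 0.43 (adjusted p = 0.00184). Under spike-in scaling the count of lower Nrf2 targets was 13, and that of glutathione supply 0.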

How the data were processed

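Total RNA of 15 whole liver tumors was labelled with Cy3 and hybridised to 1-colour Agilent mouse arrays, 1 per tumor. Labels of the samples gave the group, mouse and tumor number. The authors deposited scanner output of Agilent Feature Extraction 10.7.3.1, whose processed signal is an intensity after background subtraction, and a table of log2 values, which correlated with the values rebuilt here and was used as an alternative for the HCC groups only, since its ICC columns are centred on other arrays. Here, log2 processed signals were averaged over the spots of a probe, outlier spots were left out, and each array's 75th percentile over non-control probes was subtracted. A probe entered a comparison when 3 or more arrays of either group showed it well above background, and these probes were fitted with limma 3.58.1 in R 4.3.3 (lmFit and eBayes, Benjamini-Hochberg adjustment over all probes), and a gene was counted where its fold change exceeded 2 and its adjusted p was below 0.05. Only the 2 groups compared entered a fit. A gene was represented by its brightest probe over the 15 arrays. Single genes also have an exact 2-sided permutation test over 252 regroupings, which ignores that some tumors share a mouse. A fold against a group without any array above background is a bound. Probe positions in the array files are those of mm9, and promoter windows are those of RefSeq for GRCm38.p6.

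The 10 genes and the gene lists were chosen with earlier results of these data known, so they are no independent evidence. Named are all 10 genes, Trp53, and per list and comparison up to 4 genes with the largest change among those past the thresholds without overlap, beside genes that did not pass and a few others that passed and are said to be named with their values seen. On simulated data with 200 changed probes the fit recovered 69.5%, 78.5% and 72.0% in the comparisons of p53LKO with p53f/f HCC, ICC with p53LKO HCC and ICC with p53f/f HCC, among 36086, 32666 and 35702 probes, with 0 in the wrong direction. In the same order, 11, 9 and 7 unchanged probes were called. The planted changes all exceeded the fold limit, so recovery of smaller ones was not measured. Arrays have no read depth, and the number of arrays and the signal over background limit the precision. Tumors of 1 mouse share an animal: the pairing of HCC and ICC comes from the mouse numbers. The deviations of the 4 pairs from their group means correlated at -0.14 to 0.07. The 21 pairs of an HCC and an ICC from different mice gave -0.26 to 0.28. So few pairs cannot show whether sharing a mouse matters. Alternatives were normexp background correction (offset 50), quantile normalization, scaling to detected probes or to 7 spike-in probes, 3 other filters, slide, row or mouse as a block, other thresholds, leaving out each tumor, averaging the tumors of mouse 3717, the authors' table, 1 model for all 15 arrays, the Mann-Whitney test and the methods' t-test. Each of the 10 genes has 1 probe, so another choice of probe could not be made. Figures were drawn with matplotlib 3.10.9 in Python 3.11.15.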

Additional observations from a re-analysis of the deposited data

Results flagged for a closer look

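In 3 of 30 combinations of gene and group, a single tumor lay far from the other 4, where chance flags about 1 in 20. Keap1 in the ICC of mouse 3976 stood at 2.39, and the other 4 ICC at 1.58 to 1.74. Nqo1 in the p53LKO HCC of mouse 3731 stood at 0.28, and the other 4 at 1.47 to 1.86. Gclm in the ICC of mouse 3733 stood at -0.56, and the other 4 at 0.46 to 0.86. The ICC of mouse 3733 also had the lowest hepatocyte marker mean of its group, 4.59, and the p53LKO HCC of mouse 3731 the highest fibroblast marker mean of its group, 3.16. Their part in these levels was not tested.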

How the results depend on the processing

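Leaving out each tumor in turn, the count of the 10 genes past both thresholds was 0 for p53LKO against p53f/f HCC, 5 to 6 for ICC against p53LKO HCC and 4 to 6 for ICC against p53f/f HCC. With the replicate block, the mouse as a fixed or a random term, ICC against p53LKO HCC kept its 5 genes (Nqo1 at -3.35 with the fixed block and -3.23 with the random one, Srxn1 at -1.53 and -1.68), and no call of the 10 genes changed. The count moved to 1 with spike-in scaling for p53LKO against p53f/f HCC, to 3 (a filter that asks for signal above background on all arrays, which drops Nqo1 and Slc7a11) and 1 (within slide 1) for ICC against p53LKO HCC, and to 3 (spike-in scaling and the Mann-Whitney test, each without Srxn1 and Txnrd1) and 0 (within slide 1 and within slide 2, with 1 tumor on one side) for ICC against p53f/f HCC. It rose to 6 with normexp in both ICC comparisons (Keap1 joining in that with p53LKO HCC, Slc7a11 in that with p53f/f HCC), to 6 within the lower row, where Keap1 joined, and to 7 in both without a fold limit. The row as a block cannot be fitted for the last comparison.

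Signs turned only for differences that were not past the thresholds. Between the HCC groups Gclm was -0.13 with quantile normalization, -0.15 and -0.0458 with scaling to the 75th percentile or median of detected probes and -0.22 within slide 1. There Srxn1 was -0.0397 with scaling to the 75th percentile of detected probes, Slc7a11 -0.0506 within slide 1 and Gclc 0.0048 within slide 2. Spike-in scaling gave 0.49 for Nqo1, 0.41 for Gclc, 0.39 for Txnrd1 and 0.20 for Gpx4. Leaving out 1 tumor gave -0.71 to 0.0370 for Nqo1 and -0.0902 to 0.45 for Srxn1. Between ICC and p53LKO HCC, Nfe2l2 was 0.0248 and Gpx4 0.31 with quantile normalization, and Gpx4 was 0.15 with scaling to the 75th percentile of detected probes and 0.0274 within slide 1. Between ICC and p53f/f HCC, Nfe2l2 was 0.0498 with quantile normalization, 0.63 with spike-in scaling and 0.12 within slide 1, Keap1 was 0.17 with spike-in scaling, and Gpx2 ran from -0.34 to 1.62 with 1 tumor left out. The cause of these shifts was not tested.

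Over all probes, 7086 were past the thresholds between the HCC groups, 8615 for ICC against p53LKO HCC and 6937 for ICC against p53f/f HCC. In the same order, these counts were 2892, 5614 and 3750 with normexp, 1848, 4331 and 3753 with signal asked for on all arrays, 11865, 14764 and 12146 without a fold limit, 3511, 1188 and 284 within slide 1, and 508, 7521 and 264 within slide 2. Between the HCC groups the count was 12124 with spike-in scaling, and for ICC against p53f/f HCC it was 19132 without a filter on dim probes and 3701 with the slide as a block. The split of 1312 higher and 5774 lower between the HCC groups became 9811 and 2313 with spike-in scaling, 1542 and 3710 with quantile normalization, 613 and 8066 with scaling to the 75th percentile of detected probes, 930 and 1962 with normexp and 1002 and 846 with signal on all arrays. That of 4225 and 4390 for ICC against p53LKO HCC became 6236 and 2259 with the 75th percentile and 5120 and 3029 with the median of detected probes, and 1465 and 2866 with signal on all arrays. That of 2652 and 4285 for ICC against p53f/f HCC became 7331 and 930 with spike-in scaling, 14655 and 4477 without the filter and 1898 and 1855 with signal on all arrays. Signal near the background limits Slc7a11 and Nqo1 in ICC.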
